A study of Mus musculus with 10 samples.

Results

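The genes described here are 10 components of canonical and noncanonical NF-kB signalling: the subunit genes Nfkb1, Nfkb2, Rel, Rela and Relb, the inhibitor gene Nfkbie, the kinase gene Map3k14, and the regulator genes Birc3, Traf1 and Traf3. They were chosen by name, with earlier results of these data known, and each was found as 1 of the 23284 gene symbols in the count table. All 10 passed the filter on low counts. RNA was measured in sorted mouse endothelial cells of 3 populations: LN-LEC, the lymphatic endothelium of lymph nodes (4 libraries), LN-BEC, their blood endothelium (3 libraries), and D-LEC, the lymphatic endothelium of the diaphragm (3 libraries). All animals were wild-type C57BL/6 mice aged 6 to 8 weeks, no population was treated, and each library was a pool of several mice. Lymph node populations came from mixed inguinal, axillary, brachial, cervical and mesenteric nodes. Cells bearing CD45, the pan-leukocyte surface protein, were depleted, and CD31-positive cells were then sorted by podoplanin (PDPN), which LEC carry and BEC lack. No BEC of the diaphragm were used here, so that for LN-BEC against D-LEC the site and the vessel type cannot be told apart.

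NF-kB transcription factors are dimers of subunits that are held inactive in the cytoplasm. In the canonical pathway, receptors such as those for TNF, IL-1 and bacterial lipopolysaccharide activate the IKK complex, which marks IkB inhibitors for degradation and frees dimers of RelA or c-Rel with p50, the product of Nfkb1. In the noncanonical pathway, receptors such as the lymphotoxin beta receptor, RANK, CD40 and the BAFF receptor relieve the kinase NIK (Map3k14) from degradation by a complex of TRAF3, TRAF2 and the cIAP proteins, and NIK then acts through IKK alpha to convert p100, the product of Nfkb2, into p52, the partner of RelB. Lymphotoxin signals through this pathway are needed to form lymph nodes and to keep their specialized blood vessels. RNA counts measure transcripts and give no measure of processing, degradation or location of the proteins.

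The libraries held 22429940 to 48906070 counted fragments, and 3 counts correspond to 0.0613 to 0.134 CPM (counts scaled to library totals). The sorting markers matched the labels. LEC markers (Pdpn, Lyve1, Prox1 and Reln) summed to 79168 to 102445 normalized counts in LN-LEC, 969 to 5253 in LN-BEC and 312719 to 336892 in D-LEC, and BEC markers (Flt1, Nrp1, Vwf and Notch4) to 821 to 1374, 69379 to 72984 and 449 to 631. A normalized count is the count divided by the DESeq2 size factor of its library. LN-LEC replicate 4 and LN-BEC replicate 3 stood apart from the other libraries of their populations, with a chi-square per gene against counting error of 119 to 155 and 314 to 391, against 10.5 to 42.1 for the other pairs. LN-LEC replicate 4 had the lowest level of its population for 3 of the 10 members and LN-BEC replicate 3 for 6. With both left out, the counts of members called below were 7, 9 and 8 in LN-LEC vs D-LEC, LN-BEC vs D-LEC and LN-LEC vs LN-BEC, and these are the counts with all libraries too, but in LN-LEC vs LN-BEC not for the same genes: Traf1 lost its call and Rel gained one.

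Both lymph node populations had more transcripts than D-LEC of the noncanonical genes Nfkb2, Relb, Map3k14, Traf3 and Birc3, and also of Nfkbie and Traf1. In LN-LEC, 7 of the 10 members were higher relative to D-LEC, 0 were lower and 3 did not pass the test (edgeR quasi-likelihood test, adjusted p under 0.05 over 15373 genes), where 24.0% of all tested genes were higher in LN-LEC and 21.7% were higher in D-LEC. In LN-BEC, 8 were higher relative to D-LEC, 1 was lower and 1 did not pass, where 25.6% of all genes were higher in LN-BEC and 22.4% higher in D-LEC. Between the lymph node populations, 8 members were higher in LN-LEC, 0 were higher in LN-BEC and 2 did not pass, where 19.8% and 18.4% of all genes were called in these directions. The median log2 fold change over the 10 members was 2.35, 1.48 and 0.53 in the 3 comparisons, beside 0.03, 0.05 and -0.01 over all tested genes. The comparisons with D-LEC share the D-LEC libraries, so that they are not independent of each other.

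**Figure D1:**
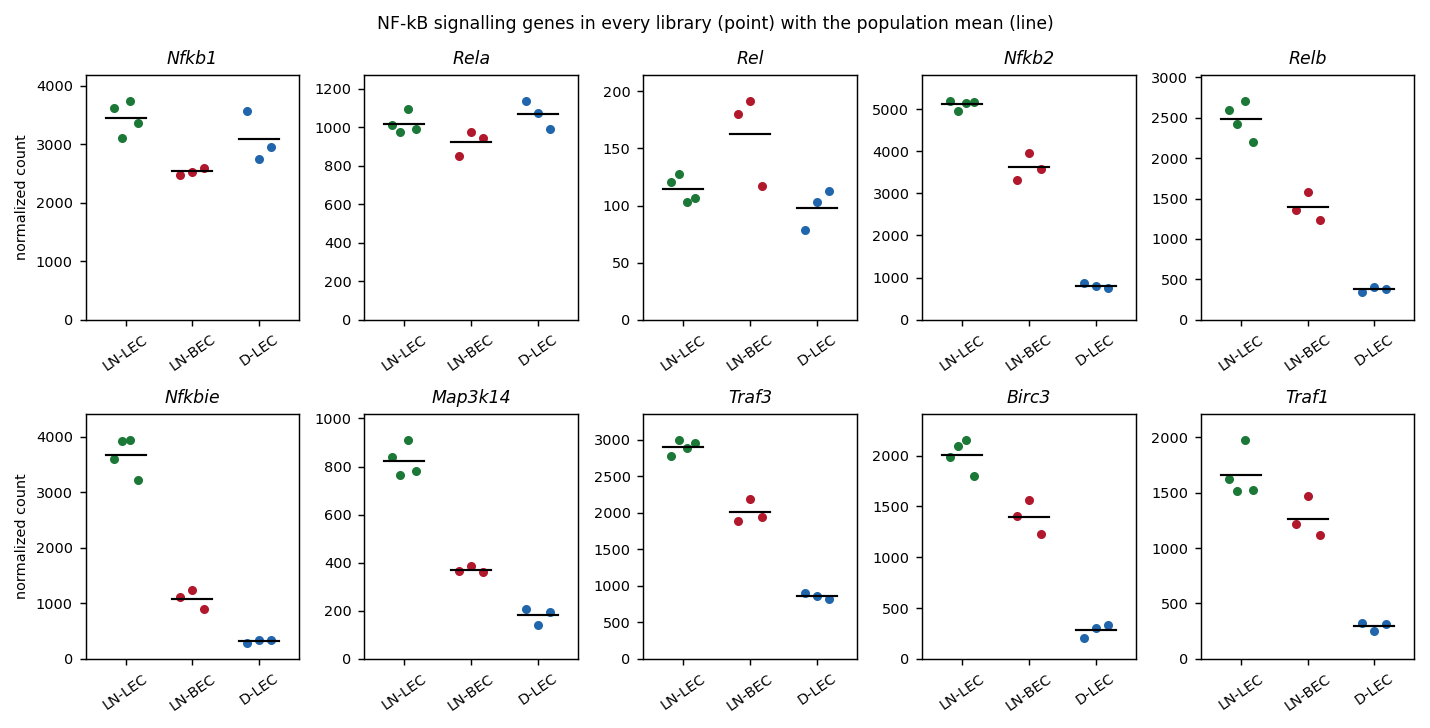
Normalized counts (vertical axes, each from 0) of the 10 genes in all 10 libraries; a point is a library and a line is the mean of its population. For Nfkb2, Relb, Nfkbie, Map3k14, Traf3, Birc3 and Traf1 all D-LEC points lie below all lymph node points, while for Nfkb1, Rela and Rel the LN-LEC and D-LEC points overlap. Of all tested genes, 25.7% have every LN-LEC library above every D-LEC library. The share is 29.3% for LN-BEC above D-LEC and 22.5% for LN-LEC above LN-BEC.

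Nfkb2, the gene of p100 and p52, lies on chromosome 19 from 46379227 to 46386580 of mm9, the build of all gene positions given here. Psd shares 0.122% of its exon bases. Nfkb2 had 5199.6, 4946, 5154 and 5174 normalized counts in the LN-LEC libraries, 3317, 3949 and 3589 in the LN-BEC libraries and 876, 805 and 747 in the D-LEC libraries. The 3 populations did not overlap, with means of 5118 ± 116 (SD, n = 4), 3618 ± 317 (n = 3) and 809.5 ± 64.4 (n = 3). It was 6.38-fold higher in LN-LEC relative to D-LEC (a log2 difference of 2.67 ± 0.09 SE, edgeR adjusted p = 6.6e-11). LN-BEC exceeded D-LEC by 4.46-fold (log2 fold change 2.16, edgeR adjusted p = 4.4e-10), and LN-LEC exceeded LN-BEC by 1.43-fold (log2 fold change 0.52 ± 0.09 SE, edgeR adjusted p = 2.3e-04).

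Relb encodes the partner of p52 and lies on chromosome 7 from 20191571 to 20214787. Its levels were 2596, 2429, 2711 and 2198.5 normalized counts in LN-LEC, 1358, 1581 and 1234 in LN-BEC and 337, 404 and 382 in D-LEC. Again the populations did not overlap, in the order LN-LEC, LN-BEC, D-LEC. The fold was 6.66 for LN-LEC over D-LEC (log2 fold change 2.74 ± 0.12 SE, edgeR adjusted p = 5.2e-10), 3.70 for LN-BEC over D-LEC (edgeR adjusted p = 1.8e-08) and 1.80 for LN-LEC over LN-BEC (edgeR adjusted p = 2.4e-05).

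Of the subunits assigned to the canonical pathway, Rela passed the test in none of the 3 comparisons. Rela (chromosome 19, 5637490 to 5648130) had 1011, 976, 1096 and 990.2 normalized counts in LN-LEC, 853, 975 and 945 in LN-BEC and 1138, 1076 and 990.4 in D-LEC. The LN-LEC and D-LEC libraries overlapped, and the 95% interval of their log2 fold change, -0.25 to 0.13, excludes a change of 2-fold (edgeR adjusted p = 0.63). LN-BEC libraries all lay below the others, with a log2 fold change of -0.21 (95% interval -0.41 to -0.01) against D-LEC and an edgeR adjusted p of 0.082. When libraries were scaled by their totals alone, Rela passed the test both in LN-BEC vs D-LEC (edgeR adjusted p = 0.009) and in LN-LEC vs LN-BEC (edgeR adjusted p = 0.014).

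Nfkb1, which encodes p105 and p50, lies on chromosome 3 from 135247619 to 135354511. It had 3616, 3109.8, 3743 and 3358 normalized counts in LN-LEC, 2476, 2531.5 and 2595 in LN-BEC and 3566, 2747.5 and 2949.8 in D-LEC. LN-BEC was thus below every library of the other populations, while LN-LEC and D-LEC overlapped. LN-LEC exceeded LN-BEC by 1.38-fold (log2 fold change 0.46 ± 0.10 SE, edgeR adjusted p = 0.0019), and D-LEC exceeded LN-BEC by 1.22-fold (edgeR adjusted p = 0.037). The call against D-LEC was lost without D-LEC replicate 1, whose level was the highest of its population (edgeR adjusted p = 0.17), and without LN-BEC replicate 1, 2 or 3 (edgeR adjusted p = 0.096, 0.074 and 0.056). For LN-LEC vs D-LEC the log2 fold change was 0.17 (edgeR adjusted p = 0.16), and 0.29 without D-LEC replicate 1 (edgeR adjusted p = 0.027).

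Rel encodes c-Rel, the subunit best known from lymphocytes, and lies on chromosome 11 from 23641729 to 23670970. It was the member with the fewest counts, 63 to 221 per library. Its levels were 121, 127.5, 103 and 106 normalized counts in LN-LEC, 180.1, 192 and 117 in LN-BEC and 78.7, 103 and 113 in D-LEC. LN-BEC lay above D-LEC (1.65-fold, log2 fold change 0.72 ± 0.23 SE, edgeR adjusted p = 0.019), and LN-BEC replicate 3 lay among the LN-LEC libraries. The call was lost without LN-BEC replicate 1 or 2 or D-LEC replicate 1 (edgeR adjusted p = 0.067, 0.085 and 0.071) and with scaling by library totals (edgeR adjusted p = 0.086). LN-LEC vs LN-BEC gave a log2 fold change of -0.50 that did not pass (95% interval -0.96 to -0.04, edgeR adjusted p = 0.082), but it passed without LN-BEC replicate 3 (-0.70, edgeR adjusted p = 0.015) and with LN-LEC replicate 4 left out as well (-0.65, edgeR adjusted p = 0.034). LN-LEC vs D-LEC gave 0.22 (95% interval -0.25 to 0.69, edgeR adjusted p = 0.43).

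Nfkbie encodes IkB epsilon, an inhibitor that retains RelA and c-Rel dimers, and lies on chromosome 17 from 45692665 to 45700117. It had 3602, 3919, 3936 and 3214 normalized counts in LN-LEC, 1111.5, 1235 and 903 in LN-BEC and 286, 341 and 334 in D-LEC. No other member differed by as large a fitted fold in LN-LEC vs D-LEC or in LN-LEC vs LN-BEC, and the 3 populations did not overlap. LN-LEC exceeded D-LEC by 11.5-fold (log2 fold change 3.52 ± 0.13 SE, edgeR adjusted p = 1.3e-10) and LN-BEC by 3.42-fold (log2 fold change 1.77 ± 0.12 SE, edgeR adjusted p = 4.8e-08). LN-BEC exceeded D-LEC by 3.37-fold (edgeR adjusted p = 7.9e-08).

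Map3k14, the gene of NIK, lies on chromosome 11 from 103081078 to 103128715. Its levels were 839, 763, 910.0 and 780.4 normalized counts in LN-LEC, 365, 388 and 361 in LN-BEC and 206, 141 and 194.5 in D-LEC. LN-LEC stood above both other populations, 4.60-fold over D-LEC (log2 fold change 2.20 ± 0.13 SE, edgeR adjusted p = 1.3e-08) and 2.24-fold over LN-BEC (log2 fold change 1.16 ± 0.13 SE, edgeR adjusted p = 5.0e-06). LN-BEC was 2.05-fold above D-LEC (log2 fold change 1.04 ± 0.14 SE, edgeR adjusted p = 2.8e-05).

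Traf3 encodes the adaptor that brings NIK to its degradation, and it was higher in the same populations as Map3k14. It lies on chromosome 12 from 112404759 to 112505359. Its normalized counts were 2782, 2994, 2882 and 2953 in LN-LEC, 1893, 2186 and 1937 in LN-BEC and 908, 855.5 and 826 in D-LEC. The populations were separate, with a fold of 3.39 for LN-LEC over D-LEC (log2 fold change 1.76 ± 0.09 SE, edgeR adjusted p = 1.3e-09), 2.32 for LN-BEC over D-LEC (edgeR adjusted p = 6.0e-08) and 1.46 for LN-LEC over LN-BEC (edgeR adjusted p = 8.6e-05).

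Birc3 encodes cIAP2, a ubiquitin ligase of the complex that degrades NIK, and lies on chromosome 9 from 7848701 to 7873170. Its levels were 1982, 2094, 2152.5 and 1796 normalized counts in LN-LEC, 1401, 1560.4 and 1228 in LN-BEC and 206, 302 and 330.4 in D-LEC. The lymph node populations lay well above D-LEC, by 7.18-fold in LN-LEC (log2 fold change 2.84 ± 0.15 SE, edgeR adjusted p = 4.8e-09) and by 4.95-fold in LN-BEC (edgeR adjusted p = 3.7e-08). LN-LEC exceeded LN-BEC by 1.45-fold (log2 fold change 0.54 ± 0.14 SE, edgeR adjusted p = 0.0067). Of 208 windows of 100 bases in its exons, 9.62% also match another place in mm9 with at most 2 mismatches. Birc2 is a close paralog, but where these windows match was not recorded. The level of Birc3 is uncertain to this extent, since fragments that map to several places were not counted. No window of the other 9 members had such a match.

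Traf1 encodes an adaptor that binds TRAF2 and the cIAP proteins and is itself a known NF-kB target. It lies on chromosome 2 from 34798778 to 34817292. It had 1623, 1517, 1973 and 1524 normalized counts in LN-LEC, 1214, 1465 and 1119 in LN-BEC and 322, 248 and 316 in D-LEC. D-LEC was far below both lymph node populations, 5.66-fold below LN-LEC (log2 fold change 2.50 ± 0.14 SE, edgeR adjusted p = 6.3e-09) and 4.27-fold below LN-BEC (edgeR adjusted p = 4.0e-08). The difference between LN-LEC and LN-BEC was 1.32-fold (log2 fold change 0.40 ± 0.13 SE, edgeR adjusted p = 0.022). This call was lost without LN-LEC replicate 3 (edgeR adjusted p = 0.072), without LN-BEC replicate 1 (edgeR adjusted p = 0.086), without LN-BEC replicate 3 (edgeR adjusted p = 0.10) and with LN-LEC replicate 4 and LN-BEC replicate 3 both left out (edgeR adjusted p = 0.068).

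**Figure D2:**
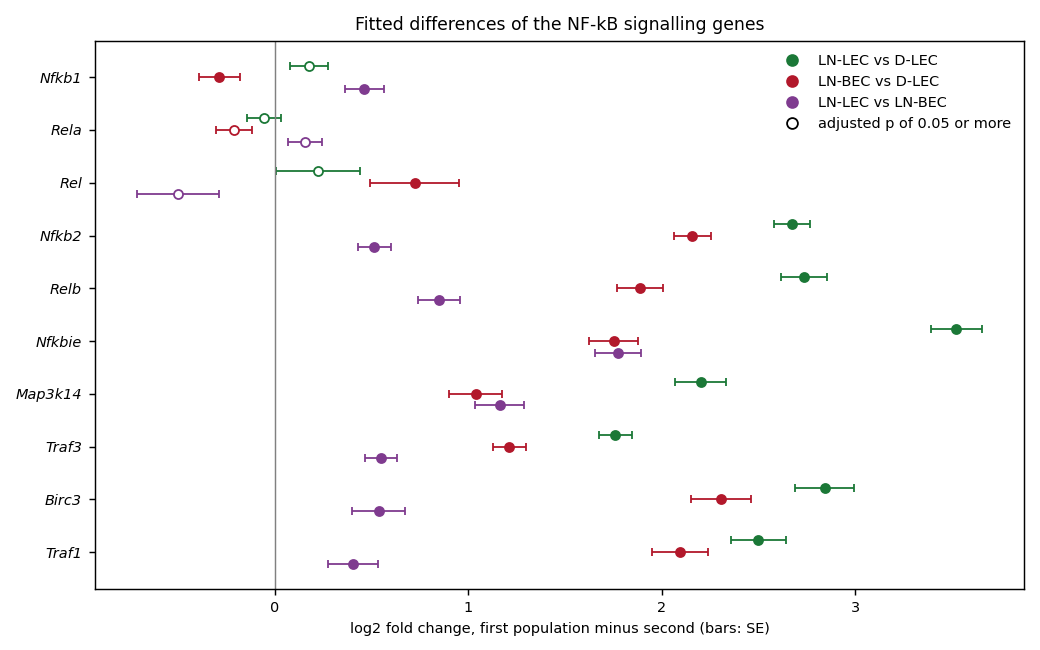
Fitted log2 fold change (horizontal axis, first population minus the other) of the 10 genes in 3 comparisons, with bars for the SE; filled points had an edgeR adjusted p under 0.05. For the 7 lower genes in the plot, from Nfkb2 to Traf1, both comparisons with D-LEC lie at 1.04 or above, and Rela stays between -0.21 and 0.16.

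Promoter sequences were read for members, since 7 of them were higher in both lymph node populations. RefSeq windows of 300 bases, from 250 before to 50 after the start site on GRCm38.p6, matched 8 of the 10 members, and Nfkb1 and Relb had no entry. On both strands they were searched for the kB decamer, the 10-letter consensus bound by NF-kB dimers. It was found in windows of Nfkb2, Rel, Nfkbie and Traf3, 4 of 8 genes, and in 9.55% of all 27025 genes with a window. The 120 bases before the start site of these 4 are given 5′ to 3′, with the letters of every match in capitals, where Nfkb2 and Rel each have a pair of matches that overlap by all but 1 letter. The windows lie at chr19:46304617-46304736, plus strand (Nfkb2, the first of its 3 windows), chr11:23770970-23771089, minus strand (Rel), chr17:45555580-45555699, plus strand (Nfkbie) and chr12:111166250-111166369, plus strand (Traf3).
Nfkb2: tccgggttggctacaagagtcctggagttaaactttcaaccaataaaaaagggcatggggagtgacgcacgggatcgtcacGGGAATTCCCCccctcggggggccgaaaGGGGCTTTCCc
Rel: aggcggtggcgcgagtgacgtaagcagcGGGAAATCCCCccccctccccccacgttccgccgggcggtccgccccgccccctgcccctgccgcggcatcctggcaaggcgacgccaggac
Nfkbie: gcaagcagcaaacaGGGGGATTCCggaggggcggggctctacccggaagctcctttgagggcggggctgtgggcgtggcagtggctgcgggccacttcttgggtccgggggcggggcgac
Traf3: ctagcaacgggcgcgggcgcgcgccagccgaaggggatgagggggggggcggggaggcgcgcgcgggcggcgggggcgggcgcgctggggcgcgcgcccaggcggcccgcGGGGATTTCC
In the window printed, the Nfkb2 matches begin 39, 38 and 11 bases before the start site, that of Nfkbie 106 bases and that of Traf3 10 bases before it, and those of Rel 92 and 91 bases before it. The other Nfkb2 windows hold matches at -236 and 10 (the second) and at -225 (the third) from their start sites. Genes with a match thus include 3 that were higher in both lymph node populations relative to D-LEC and Rel, which was called only in LN-BEC vs D-LEC. Birc3, Traf1, Map3k14 and Rela had no match in their windows. A match describes letters in this window and was not tested for binding.

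Per kilobase of exon the subunits ranked differently in the populations. Counts per kilobase allow levels of different genes to be set side by side. In LN-LEC, Nfkb2 had 1555 ± 35.3 normalized counts per kilobase (SD, n = 4) and Nfkbie 1515 ± 140 (n = 4), with overlapping libraries. Relb followed with 1129 ± 101, above Nfkb1 with 839 ± 68.3. Birc3 (714 ± 55.8) and Traf1 (714 ± 92.4) overlapped with Nfkb1 and with each other. Traf3 (416 ± 13.3) and Rela (376 ± 19.8) also overlapped, and Map3k14 (197 ± 15.9) and Rel (44.3 ± 4.50) came last, each separate from its neighbour.

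In D-LEC, Nfkb1 was the highest member at 749.8 ± 104 normalized counts per kilobase (SD, n = 3), followed by Rela at 394 ± 27.4, Nfkb2 at 246 ± 19.6 and Relb at 170.3 ± 15.5, none of which overlapped. Nfkbie (132 ± 12.3), Traf1 (127 ± 17.7) and Traf3 (124 ± 5.95) overlapped, and Birc3 had 99.5 ± 23.2, which overlapped with Traf1. Map3k14 (43.3 ± 8.31) and Rel (38.0 ± 6.81) overlapped at the bottom. In LN-BEC, Nfkb2 was the highest member at 1099 ± 96.3 (n = 3). Relb (632 ± 79.9), Nfkb1 (615 ± 14.5) and Traf1 (544.5 ± 76.9) overlapped there. Birc3 (497 ± 59.2) and Nfkbie (447 ± 69.35) followed and overlapped with Traf1 and with each other, and Rela lay below them at 341 ± 23.4.

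Ratios of normalized counts per kilobase within a library do not depend on the scaling of the libraries. Nfkb2 over Nfkb1 was 1.80, 1.99, 1.72 and 1.93 in LN-LEC, 1.68, 1.95 and 1.73 in LN-BEC and 0.307, 0.367 and 0.317 in D-LEC. The lymph node populations overlapped and were above D-LEC, where Nfkb1 was the more abundant of the pair. Relb over Rela was 2.73 to 3.16 in LN-LEC, 1.61 to 2.0 in LN-BEC and 0.365 to 0.475 in D-LEC, with no overlap. Nfkbie over Nfkbia, the gene of the main inhibitor IkB alpha, was 0.145 to 0.226 in LN-LEC, 0.0383 to 0.0594 in LN-BEC and 0.0236 to 0.0303 in D-LEC, so that Nfkbia was the more abundant in every library. Map3k14 over Traf3 was 0.426 to 0.528 in LN-LEC, above LN-BEC (0.297 to 0.322) and D-LEC (0.276 to 0.393), which overlapped. Birc3 over Birc2 was 0.175 to 0.233 in LN-LEC, 0.324 to 0.348 in LN-BEC and 0.224 to 0.283 in D-LEC. No test was run on these ratios.

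**Figure D3:**
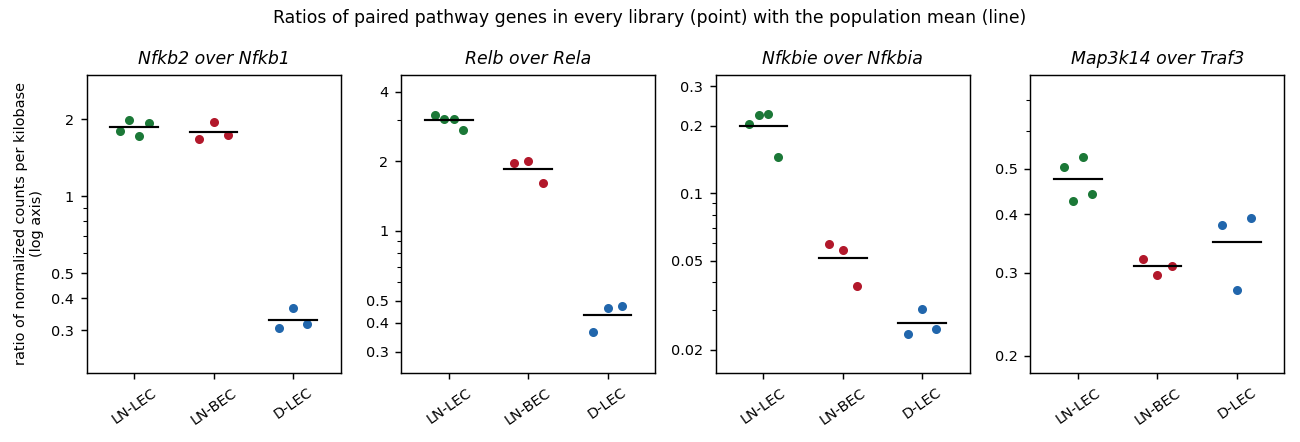
Ratios of normalized counts per kilobase of 4 pairs of genes (log axes) in every library, with the mean of each population as a line. Nfkb2 over Nfkb1 is above 1 in all lymph node libraries and between 0.307 and 0.367 in D-LEC, and Relb over Rela falls in the order LN-LEC, LN-BEC, D-LEC without overlap.

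The remaining components were taken from 6 lists with 93 genes besides the members, of which 90 could be tested. In LN-LEC vs D-LEC 45 of them were higher in LN-LEC, 6 were lower and 39 did not pass. In LN-BEC vs D-LEC these numbers were 51, 5 and 34, and in LN-LEC vs LN-BEC they were 21, 25 and 44. The median log2 fold changes were 0.58, 0.80 and -0.06, beside the values for all genes given above. Of all tested genes, 24.0% were higher and 21.7% lower in LN-LEC vs D-LEC. These shares were 25.6% and 22.4% in LN-BEC vs D-LEC, and 19.8% and 18.4% in LN-LEC vs LN-BEC. The counts of every list below are to be read beside these shares.

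Among 10 genes of IkB proteins and other inhibitors, 7 were higher in LN-LEC relative to D-LEC, 1 was lower and 2 did not pass (median log2 fold change 0.84). In LN-BEC vs D-LEC 8 were higher, 0 lower and 2 did not pass (median 0.68), and in LN-LEC vs LN-BEC 4 were higher, 3 lower and 3 did not pass (median 0.16). Tnfaip3, the gene of A20, a ubiquitin editing enzyme that ends canonical signals, had 3774.8, 3623.5, 4170.0 and 3723.5 normalized counts in LN-LEC, 1705, 1953 and 1852 in LN-BEC and 616, 624 and 785 in D-LEC. It was 5.70-fold higher in LN-LEC relative to D-LEC (edgeR adjusted p = 5.3e-10) and 2.10-fold higher relative to LN-BEC (edgeR adjusted p = 1.4e-06). Tnip1, which encodes a partner of A20, was 5.53-fold and 4.13-fold higher in LN-LEC and in LN-BEC, in that order, against D-LEC (edgeR adjusted p = 2.5e-10 and 1.5e-09), and Bcl3, an atypical IkB that binds p50 and p52, 4.68-fold and 3.14-fold (edgeR adjusted p = 1.1e-08 and 2.3e-07).

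Nfkbia itself was 1.53-fold higher in LN-LEC and 1.74-fold higher in LN-BEC relative to D-LEC (edgeR adjusted p = 5.9e-04 and 1.0e-04). Nfkbid, an inducible nuclear IkB, was 3.35-fold higher in LN-BEC relative to LN-LEC (edgeR adjusted p = 2.3e-05) and lowest in D-LEC, at 4.12 to 10.01 normalized counts. Nfkbiz, another nuclear IkB, went the other way in LN-LEC: its 4 libraries, at 1711 to 2624, lay below those of LN-BEC (3731 to 4221) and D-LEC (3265 to 4127). It was 1.84-fold lower in LN-LEC relative to D-LEC (edgeR adjusted p = 1.3e-04).

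Among 25 kinases and adaptors, in LN-LEC vs D-LEC 7 were higher, 2 lower and 16 did not pass (median log2 fold change 0.06). Of all tested genes, 24.0% were higher and 21.7% lower there. In LN-BEC vs D-LEC 11 were higher, 1 lower and 13 did not pass (median 0.16), beside 25.6% and 22.4% of all genes. In LN-LEC vs LN-BEC 4 were higher, 5 lower and 16 did not pass (median -0.05), beside 19.8% and 18.4% of all genes. Birc2, the gene of cIAP1, differed most among these kinases and adaptors in LN-LEC vs D-LEC. It had 11410.3, 13332, 10314 and 10920.4 normalized counts in LN-LEC, 4635, 5008 and 4228 in LN-BEC and 1027, 1194 and 1322.5 in D-LEC. The populations did not overlap, with folds of 9.79 for LN-LEC over D-LEC (edgeR adjusted p = 1.4e-10), 3.90 for LN-BEC over D-LEC (edgeR adjusted p = 1.4e-08) and 2.51 for LN-LEC over LN-BEC (edgeR adjusted p = 4.8e-07). Of its exon windows of 100 bases, 2.70% match another place in mm9.

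Traf2, the adaptor that joins TRAF3 to the cIAP proteins, was 1.75-fold and 1.68-fold higher in LN-LEC and in LN-BEC, in that order, against D-LEC (edgeR adjusted p = 4.8e-04 and 0.0013). Bcl10, an adaptor of antigen and G protein receptors upstream of IKK, was 1.64-fold and 1.44-fold higher (edgeR adjusted p = 2.9e-04 and 0.0039). Malt1, its partner, was 1.69-fold higher in LN-BEC relative to LN-LEC (edgeR adjusted p = 1.4e-04). The calls for Bcl10 and Malt1 in LN-BEC vs D-LEC were lost with scaling by library totals (edgeR adjusted p = 0.058 and 0.074). Chuk, which encodes IKK alpha, the kinase downstream of NIK, had 1356 to 1626 normalized counts in LN-LEC, 1801 to 1910.1 in LN-BEC and 1612.5 to 1898 in D-LEC. It did not pass in either comparison with D-LEC (edgeR adjusted p = 0.091 for LN-LEC and 0.41 for LN-BEC), and it was lower in LN-LEC relative to LN-BEC (log2 fold change -0.30, edgeR adjusted p = 0.017). The latter call was lost without LN-LEC replicate 3 or LN-BEC replicate 1 (edgeR adjusted p = 0.052 and 0.069) and with scaling by library totals (edgeR adjusted p = 0.50). Ikbke, an IKK-related kinase, was 5.19-fold lower in LN-BEC relative to D-LEC (edgeR adjusted p = 2.0e-07) and 3.70-fold higher in LN-LEC relative to LN-BEC (edgeR adjusted p = 1.8e-06).

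Among 16 receptor genes, 9 were higher in LN-LEC relative to D-LEC, 2 were lower and 5 did not pass (median log2 fold change 0.57). In LN-BEC vs D-LEC 8 were higher, 2 lower and 6 did not pass (median 0.83), and in LN-LEC vs LN-BEC 4 were higher, 6 lower and 6 did not pass (median -0.04). Ltbr, the lymphotoxin beta receptor, had 1293, 1364, 1485 and 1186 normalized counts in LN-LEC, 1437, 1543 and 1417 in LN-BEC and 967, 1015 and 1019 in D-LEC. D-LEC lay below both, by 1.34-fold against LN-LEC and 1.46-fold against LN-BEC (edgeR adjusted p = 0.0016 and 3.2e-04), and the lymph node populations overlapped (edgeR adjusted p = 0.30). Tlr4, the lipopolysaccharide receptor, was 31.1-fold and 17.5-fold higher in LN-LEC and in LN-BEC, in that order, against D-LEC, where it had 19.8 to 25.0 normalized counts (edgeR adjusted p = 1.9e-10 and 1.0e-09). Il1r1, the IL-1 receptor, and Tnfrsf9, which encodes 4-1BB, were highest in LN-BEC, 5.08-fold and 26.0-fold above LN-LEC (edgeR adjusted p = 1.7e-08 and 7.1e-09).

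Among 12 ligand genes, 4 were higher in LN-LEC relative to D-LEC and 8 did not pass, 5 were higher in LN-BEC relative to D-LEC and 7 did not pass, and in LN-LEC vs LN-BEC 2 were higher, 1 lower and 9 did not pass (median log2 fold changes 1.11, 1.69 and -0.41). Ltb, which encodes lymphotoxin beta, had 170.5, 175, 197 and 94.9 normalized counts in LN-LEC, 8.79, 24.3 and 13.6 in LN-BEC and 0, 1.001 and 0 in D-LEC. LN-LEC was 10.2-fold above LN-BEC (edgeR adjusted p = 1.9e-05). Tnf had 82.9 to 124 in LN-LEC, 14.8 to 52.4 in LN-BEC and 7.004 to 9.89 in D-LEC, with LN-LEC 11.3-fold above D-LEC (edgeR adjusted p = 3.3e-05). The smaller difference of Tnf in LN-BEC vs D-LEC (edgeR adjusted p = 0.011) was lost without LN-BEC replicate 3 (edgeR adjusted p = 0.073). Tnfsf11, the gene of RANKL, had 15.9 to 27.0 in LN-LEC, 20.8 to 29.0 in LN-BEC and no count in any D-LEC library. Against a floor of 3 counts per D-LEC library it was at least 7.16-fold higher in LN-LEC and at least 8.36-fold higher in LN-BEC.

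Among 22 genes known as canonical targets, 14 were higher in LN-LEC relative to D-LEC, 1 was lower and 7 did not pass (median log2 fold change 0.91). In LN-BEC vs D-LEC 14 were higher, 2 lower and 6 did not pass (median 1.43), and in LN-LEC vs LN-BEC 8 were higher, 5 lower and 9 did not pass (median 0.15). Nfkbia and Tnfaip3 are in this list as well as among the inhibitors. Likewise, Tnfsf11 and Tnfsf13b are counted both among the ligands and among the lymphotoxin-dependent genes below. Vcam1, an adhesion molecule for leukocytes, had 11261, 11640.2, 10206.5 and 12660.2 normalized counts in LN-LEC, 2884, 2233 and 2584 in LN-BEC and 75.0, 52.0 and 113 in D-LEC. The populations were separate by wide margins, 142-fold for LN-LEC over D-LEC (edgeR adjusted p = 5.5e-10) and 31.6-fold for LN-BEC over D-LEC (edgeR adjusted p = 5.1e-09). Cxcl10, a chemokine for T cells, was 94.6-fold higher in LN-LEC and 11.7-fold higher in LN-BEC relative to D-LEC (edgeR adjusted p = 3.2e-07 and 1.5e-05). Ccl20, a chemokine for cells bearing CCR6, had 705 to 1609 normalized counts in LN-LEC, 13.02 to 46.1 in LN-BEC and 0 to 1.25 in D-LEC.

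The order of the populations was not shared by all targets. Selp, the gene of P-selectin, was 3.52-fold higher in LN-LEC and 25.1-fold higher in LN-BEC relative to D-LEC (edgeR adjusted p = 2.5e-05 and 3.8e-09). Between the lymph node populations, Selp was 7.14-fold higher in LN-BEC relative to LN-LEC (edgeR adjusted p = 7.9e-08). Il6, an inflammatory cytokine gene, had 1.14 to 3.14 normalized counts in LN-LEC, 63.4 to 98.6 in LN-BEC and 30.5 to 33.0 in D-LEC. LN-LEC was below D-LEC (edgeR adjusted p = 4.3e-06), and LN-BEC was 2.46-fold above it (edgeR adjusted p = 0.0055).

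Of 12 lymph node genes known to depend on lymphotoxin, 9 could be tested, and Ccl21a, Ccl21b and Ccl21c had no counts. Fragments that map to several places were not counted, and matches to other places were not searched for these Ccl21 genes. The lack of counts alone thus does not show that they were silent. In LN-LEC vs D-LEC 7 of the 9 were higher and 2 did not pass, in LN-BEC vs D-LEC 8 were higher and 1 did not pass, and in LN-LEC vs LN-BEC 0 were higher, 5 were lower and 4 did not pass. The median log2 fold changes were 3.60, 6.30 and -1.22, and 2.84 and 5.06 in the comparisons with D-LEC when genes without a count in D-LEC were set at their lower bound. Madcam1, the addressin of mucosal lymph nodes, had 2993 to 4028 normalized counts in LN-LEC, 7027 to 10932 in LN-BEC and 0 to 6.25 in D-LEC. Glycam1, Fut7 and Chst4 belong to the blood vessels through which lymphocytes enter lymph nodes, and LN-BEC was highest for each. Glycam1 had 2064592 to 2824394 normalized counts in LN-BEC, 55031 to 81951 in LN-LEC and 178 to 641 in D-LEC. Fut7 had 4225 to 6108 in LN-BEC, 42.1 to 72.6 in LN-LEC and 1.65 to 8.75 in D-LEC. The BEC markers were also counted in LN-LEC, with sums of 821 to 1374 against 69379 to 72984 in LN-BEC. The part of BEC transcripts in the LN-LEC levels of Glycam1 and Fut7 was not tested.

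**Figure D4:**
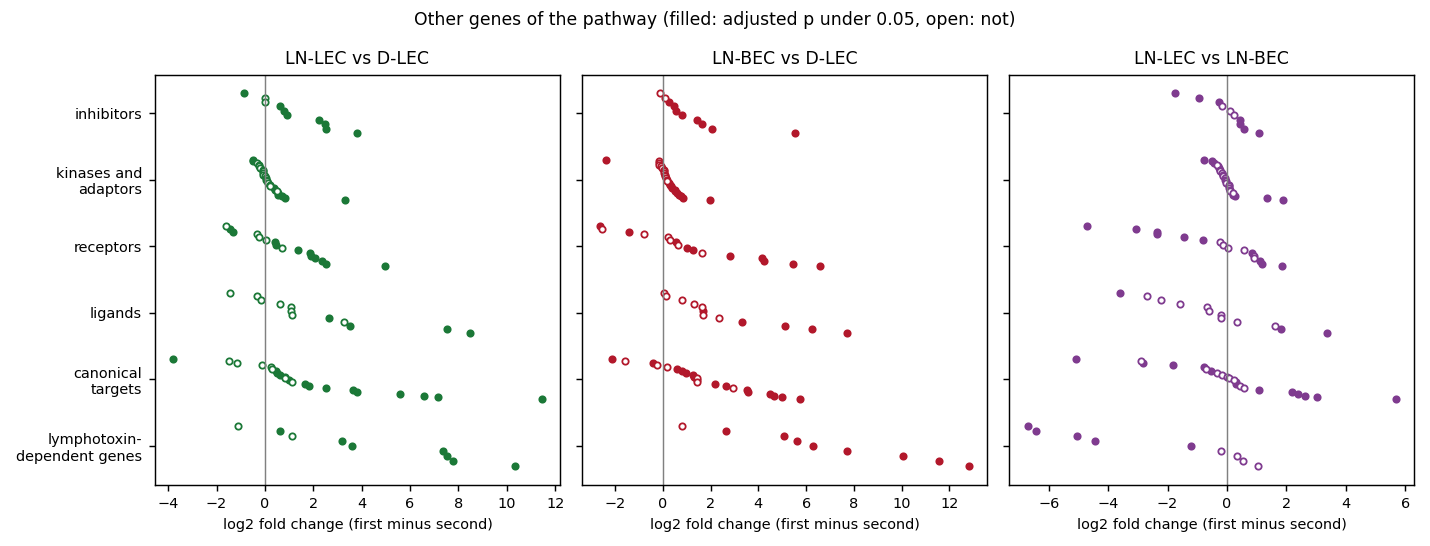
Fitted log2 fold change (horizontal axes, first population minus the other) of the tested genes of 6 pathway lists in 3 comparisons, where a point is a gene and filled points had an edgeR adjusted p under 0.05. Kinases and adaptors have medians of 0.06 and 0.16 in the comparisons with D-LEC, with Birc2 at 3.29 and 1.96 and Ikbke at -2.38 in LN-BEC vs D-LEC away from them. Values of genes without a count in D-LEC depend on the prior count of the fit.

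Transcripts of other cell types and of a stress response also differed between the populations. The 15 leukocyte markers summed to 583 to 724 normalized counts in LN-LEC, 1102 to 1701 in LN-BEC and 153 to 286 in D-LEC. In LN-LEC vs D-LEC 4 of the 15 were higher and 11 did not pass (median log2 fold change 0.99), and in LN-BEC vs D-LEC 11 were higher, 1 was lower and 3 did not pass (median 4.21). In LN-LEC vs LN-BEC 0 were higher, 9 were lower and 6 did not pass (median -2.81). No marker was at 0 in LN-BEC, and up to 2 were at 0 in an LN-LEC library and up to 5 in a D-LEC library. Ptprc, which encodes CD45, had 33.8 to 51.0 normalized counts in LN-LEC, 208 to 325 in LN-BEC and 9.06 to 21.2 in D-LEC. The sum was thus higher in both lymph node populations relative to D-LEC, and higher in LN-BEC relative to LN-LEC. Skeletal muscle markers summed to 30.8 to 46.8 in LN-LEC, 82.5 to 103 in LN-BEC and 939.6 to 1310.1 in D-LEC, and the 6 of them were higher in D-LEC than in either lymph node population. Fibroblast and pericyte markers summed to 234 to 563, 526 to 822 and 95.0 to 267.

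Immediate early genes respond to tissue dissociation, and the heat shock genes Hspa1a and Hspa1b were listed with them. The list summed to 31707.5 to 89473 normalized counts in LN-LEC, 92730 to 173568.5 in LN-BEC and 254527 to 285707 in D-LEC. In LN-LEC vs D-LEC 11 of 11 were lower, where 21.7% of all tested genes were. In LN-BEC vs D-LEC 6 were lower and 5 did not pass, where 22.4% of all tested genes were lower. In LN-LEC vs LN-BEC 5 were lower and 6 did not pass, where 18.4% of all tested genes were lower. LN-LEC replicate 4 and LN-BEC replicate 3 had the highest sum of their populations. The part of these transcripts in the differences of the NF-kB genes was not tested. In bulk samples, fewer cells of a type and less RNA per cell cannot be told apart.

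The genes whose log2 CPM followed a member most closely over the 10 libraries were found among all tested genes. For Nfkb2 they were Ltbp2 (Pearson r = 0.998) and Il2rg (r = 0.997), for Relb Arrdc2 and Btbd11 (r = 0.998 each), for Nfkbie Cd2bp2 and Arrdc4 (r = 0.997 each) and for Map3k14 Dcaf12l2 and Col27a1 (r = 0.993 each). The nearest gene to Traf1 was Tnip1 (r = 0.997), followed by Gimap5 (r = 0.997), and those to Traf3 were Serpina3g (r = 0.996) and Klhl29 (r = 0.995). Birc3 was closest to Lifr (r = 0.995) and Decr1 (r = 0.993). For the members with small differences the values were lower, at 0.960 for Nfkb1 with Slc39a13, 0.968 for Rel with Prps1l3 and 0.932 for Rela with Fam53c. These r describe 10 libraries that fall into 3 populations, share their depth between genes and are not independent.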

How the data were processed

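RNA of sorted CD45-negative, CD31-positive cells was amplified and sequenced in 10 libraries (LN-LEC 4, LN-BEC 3, D-LEC 3), grouped by the labels, which give no batch, date or pairing. Reads had been trimmed by the authors (Fastx-trimmer) and mapped on mm9 (STAR), and featureCounts version 1.4.4 gave fragments per gene symbol, without regard to strand and without fragments that map to several places. The deposited values are these raw counts. The authors also deposited each gene's exon length, used here for levels per kilobase.

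Levels are counts divided by DESeq2 1.42.0 size factors. Predicted and clone symbols (3756) were left out, and the 15373 genes whose mean level reached 1 normalized count in any population were tested in R 4.3.3 with edgeR 4.0.16 (TMM factors, estimateDisp, robust quasi-likelihood fit to all 10 libraries, Benjamini-Hochberg adjustment within a comparison). Genes were called at an adjusted p under 0.05. SE is the size of the log2 fold change over the root of F, and intervals are 95% intervals from the fitted degrees of freedom. The script was tested on simulated data. P-values measure the spread between pooled libraries. With 22429940 to 48906070 fragments, that spread exceeded counting error when averaged over genes. This was not checked gene by gene, and counting error weighs more in genes with few counts, such as Rel.

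The members and lists were chosen with earlier results of these data known. Genes named are the 10 members, the 3 called genes of largest change in each list and comparison, Ltbr, Nfkbia, Tnfaip3, Chuk and Birc2, and for each member the 2 genes with the highest Pearson r of log2 CPM (prior count 2). From these, examples are given. Alternatives were other scalings, filters, thresholds and a DESeq2 test, leaving out each library and, chosen after seeing the data, leaving out LN-LEC replicate 4 and LN-BEC replicate 3 together.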

Additional observations from a re-analysis of the deposited data

Results flagged for a closer look

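In 42 genes of the members and pathway named in the report, the levels of the 4 LN-LEC libraries were searched for a library apart from the others; the groups of 3 were not searched. The gap of the extreme library divided by the range of the group passed Dixon's critical value for 2 genes, where chance alone flags about 1 in 20 groups. For Nfkbia, which encodes IkB alpha, the value was 0.941, with 14413 normalized counts in LN-LEC replicate 4 against 11339 to 11521 in the others. Tnfrsf13c, which encodes the BAFF receptor, had a value of 0.837, with 15.3 normalized counts in LN-LEC replicate 2 against 6.51 to 7.94 in the others. None of the 10 members passed the value.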

How the results depend on the processing

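Over all alternatives the 10 members kept the direction of their log2 fold change in each of the 3 comparisons. Of 570 member values under alternatives, 553 stayed on their side of the threshold, 5 passed it newly and 12 no longer passed it, all of them for Nfkb1, Rel, Rela and Traf1 as given above. With a fold of at least 2 required as well, 2 members were called in LN-LEC vs LN-BEC (Nfkbie and Map3k14), 32 and 28 pathway genes in LN-LEC vs D-LEC and LN-LEC vs LN-BEC, and 3580, 4136 and 3168 of all genes in LN-LEC vs D-LEC, LN-BEC vs D-LEC and LN-LEC vs LN-BEC. Leaving out 1 library at a time gave 7 to 8, 7 to 9 and 7 to 8 members called in these comparisons. Scaling by library totals alone, without TMM factors, moved the median of all genes by -0.18 in LN-BEC vs D-LEC, where 39.5% of calls were then higher in LN-BEC (53.3% with TMM), and by 0.20 in LN-LEC vs LN-BEC, where 69.0% were then higher in LN-LEC (51.9% with TMM). Under this scaling the sign of 4 differences that did not pass the test turned, but not relative to the median of all genes: Nfkbiz (-0.118) and Chuk (-0.083) in LN-BEC vs D-LEC, and Ltbr (0.08) and Nfkbia (0.022) in LN-LEC vs LN-BEC. Nfkbiz in LN-BEC vs D-LEC also ranged from -0.029 (without D-LEC replicate 1) to 0.136 when single libraries were left out, and the cause was not tested. No paired analysis was possible because the labels give the populations no shared replicate numbers.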

Other observations

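Other receptors and products of the pathway were chosen after their values were seen. Tnfrsf11a, which encodes RANK, had 29972, 26376, 17328 and 37342 normalized counts in LN-LEC, 9194, 9441.5 and 4695 in LN-BEC and 4858, 4798 and 10136 in D-LEC. LN-LEC was 4.24-fold above D-LEC (edgeR adjusted p = 0.0036) and 3.61-fold above LN-BEC (edgeR adjusted p = 0.0072), while LN-BEC and D-LEC overlapped (edgeR adjusted p = 0.67). Cd40, another receptor of the noncanonical pathway, was highest in D-LEC, at 417 to 509.8 normalized counts, against 144 to 207 in LN-LEC and 54.7 to 90.5 in LN-BEC. It was 2.72-fold higher in D-LEC relative to LN-LEC (edgeR adjusted p = 2.0e-05) and 6.11-fold higher relative to LN-BEC (edgeR adjusted p = 1.9e-07).

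Cxcl13, a chemokine of B cell follicles, varied widely within the lymph node populations, at 877 to 3799 normalized counts in LN-LEC and 524 to 2009 in LN-BEC, against 126 to 389.8 in D-LEC. It was 9.03-fold higher in LN-LEC (edgeR adjusted p = 0.011) and 6.24-fold higher in LN-BEC (edgeR adjusted p = 0.024) relative to D-LEC, and did not pass in LN-LEC vs LN-BEC (edgeR adjusted p = 0.58). Cxcl12, the ligand of CXCR4, was 33.3-fold higher in LN-BEC relative to D-LEC (edgeR adjusted p = 5.3e-10). The TNF receptor genes Tnfrsf1a and Tnfrsf1b were both highest in LN-BEC, 1.74-fold and 2.74-fold above LN-LEC (edgeR adjusted p = 6.4e-06 and 2.3e-08).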
